A study of Mus musculus with 6 samples.

Results

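The mRNAs of the cytosolic ribosomal proteins were examined in 6 RNA-seq libraries of mouse macrophages. Members were chosen by name: protein-coding symbols that begin with Rpl or Rps followed by a digit, together with *Rplp0*, *Rplp1*, *Rplp2* and *Rpsa*, without copies named "-ps" and without the ribosomal S6 kinases. Of the 55335 rows of the table, 86 carried such a name and 84 had a mean of at least 5 FPKM (fragments counted per unit of transcript length and of library size). The 84 genes comprised 47 named for the large subunit, 34 named for the small subunit and 3 of the stalk. The 2 genes left out were *Rpl10l*, listed at 0 in all 6 libraries, and *Rpl3l*, listed at 0 in 4 libraries and at 0.0259 and 0.0595 FPKM in the others; the member just above the limit was *Rpl39l*, with a mean of 11.1 FPKM.

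The sequenced cells were bone marrow-derived macrophages (BMDMs) of wild-type (WT) genotype, grown for 7 days in 25 ng/ml M-CSF, the growth factor that drives bone marrow precursors towards macrophages. They were co-cultured for 24 h with neutrophils taken from the injured spinal cord at 3 days post injury (dpi), either from *Cd177* WT mice (WT N, 3 libraries) or from *Cd177* KO mice (KO N, 3 libraries). The mice were males of the C57BL/6 background, 8 weeks old, and the BMDMs were recovered by sorting away Ly6G+ cells. There were no BMDMs cultured without neutrophils, so a WT N or KO N value has no baseline in these libraries. Nothing in the sources used here says that the replicates came from separate cultures or mice, so the p-values measure only the spread between these samples, which may be technical.

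A cytosolic ribosome joins a small subunit, which reads the mRNA, to a large subunit, which makes the peptide bond, and each holds ribosomal RNA and a set of proteins that are mostly present once per ribosome. The P proteins form a flexible stalk on the large subunit that recruits elongation factors. In vertebrates these mRNAs begin with a run of C and T bases, the terminal oligopyrimidine (TOP) motif, through which mTORC1 sets their translation, and they are among the most abundant mRNAs of a dividing or growing cell.

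Of the 84 genes, 64 matched an entry of the RefSeq promoter table (GRCm38.p6). The longest unbroken run of C and T from 20 bases before to 10 bases after the annotated start had a median of 6.5 bases in those 64, against 4 over all 27025 promoters, and a run of at least 8 bases was present in 26 of them (40.6%, against 12.4% of all promoters). The windows below are shown because they set members whose FPKM rose in KO N beside members whose difference lay nearest to 0; each is written 5′ to 3′ on the gene's strand, with the longest C and T run in capitals (the first, where runs of equal length occur). The first set holds the 5 largest rises that had an entry, *Rps25* (chr9:44407694-44407723, + strand), *Rpl23* (chr11:97782430-97782459, - strand), *Rps27rt* (chr9:114982730-114982759, - strand), *Rpl10a* (chr17:28328451-28328480, + strand) and *Rpl36a* (chrX:134585634-134585663, + strand).
Rps25: TCCTTTTTTTCCgacatcttagcgaggctg
Rpl23: gctggacgaggTCCggtcacgtggctgagt
Rps27rt: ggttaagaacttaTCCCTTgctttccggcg
Rpl10a: gcgtggtggcgCCCCCCCagcggccgcaaa
Rpl36a: aggaagtgcaCCCaggcaccgcctataaac

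The second set holds the 5 members with an entry whose difference was nearest to 0, *Rpl7a* (chr2:26910787-26910816), *Rpl27* (chr11:101442225-101442254), *Rpl24* (chr16:55966255-55966284), *Rps2* (chr17:24720043-24720072) and *Rpl14* (chr9:120571497-120571526), all on the + strand.
Rpl7a: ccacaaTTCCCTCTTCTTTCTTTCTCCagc
Rpl27: ccggaacgctctgTTCCTgtctgctgctcg
Rpl24: taggaagaaagCTgttgctaggaaacagac
Rps2: tgcgtaggcagtcgagatctcgcgCTTCTT
Rpl14: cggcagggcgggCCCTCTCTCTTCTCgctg

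Long and short runs stood in both sets. The longest of all 64 was the run of 21 bases of *Rpl7a*, a gene with nearly equal group means, while *Rps25*, among the largest rises, had 12 bases and *Rpl23* had 3. In the whole window from 250 bases before to 50 after the start, the letters CTTTCC were found on the printed strand in 37.5% of the 64 promoters and 14.0% of all promoters, and CTCTTT, which can share the letters CTTT with it, in 34.4% and 12.0%. The letters CCGGAA, the core of sites bound by ETS-family factors, were found on either strand in 51.6% of the members' promoters and 15.2% of all promoters. Such matches describe letters near an annotated start, which need not be the start used in these cells.

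The libraries expressed the macrophage markers at high levels (summed FPKM of the 10 markers 9874 to 12948). The neutrophil markers were higher in KO N, with 12 of 14 tested genes higher and 1 lower and summed values over 18 genes of 203 to 263 FPKM in WT N and 563 to 578 FPKM in KO N; *Ly6g*, the marker used in the sort, was listed at 0 in the 3 WT N libraries and at 0.66, 0.547 and 0.403 FPKM in KO N. *Cd177* was at 0.544, 0.309 and 0.521 FPKM in WT N and 1.79, 1.84 and 2.28 FPKM in KO N; the knockout was in the neutrophils and the sequenced BMDMs were WT, but the order of the groups was opposite to the labels, so every direction given here is between libraries as labelled WT N and KO N. Single markers of B and T lymphocytes were also higher in KO N (*Cd79b* by 1.80 and *Cd4* by 1.43 on the log2 scale), while *Cd79a*, *Cd3e* and *Cd3d* were at or near 0. In bulk RNA a change in the number of cells of a type and a change in RNA per cell cannot be told apart, and the part of other cells in the differences below was not tested.

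The summed level of the ribosomal protein mRNAs was higher in every KO N library than in 2 of the 3 WT N libraries. The summed FPKM of the 84 genes was 12449, 11745 and 17015 in WT N and 16919, 16622 and 17987 in KO N (mean 13736 ± 2861 and 17176 ± 718, SD, n = 3 each, ratio 1.25). WT N replicates 1 and 2 were lowest and WT N replicate 3 lay within the KO N range, so the groups overlapped. As a share of the FPKM of all genes the values were 4.08%, 3.88% and 4.99% in WT N and 5.48%, 5.45% and 5.58% in KO N, and on this scale the 3 KO N libraries lay above all WT N libraries. The small subunit genes had a ratio of 1.29 between group means, the large subunit genes 1.24 and the stalk genes 1.20. *Rplp1* alone made up a large part of the sum, but without it the ratio was 1.26.

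**Figure D1:**
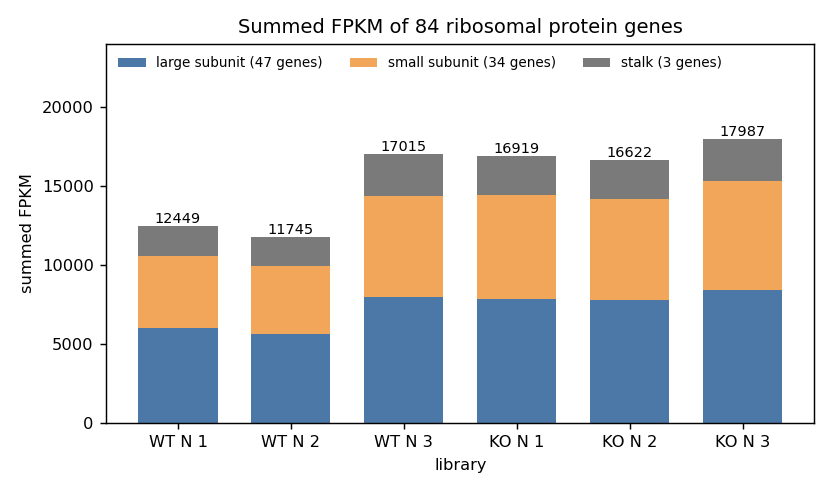
Summed FPKM (vertical axis, from 0) of the 84 ribosomal protein genes in each of the 6 libraries (horizontal axis), stacked by large subunit, small subunit and stalk, with the total printed above each bar. WT N replicates 1 and 2 stand at 12449 and 11745, and WT N replicate 3, at 17015, stands among the KO N libraries at 16622 to 17987.

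Gene by gene, 18 of the 84 members (21.4%) were higher in KO N with an adjusted p-value under 0.05 in limma and none was lower. Of all 13367 genes tested, 27.1% were higher and 10.5% were lower, so the share of ribosomal protein genes called higher was below that of all genes. The median log2 difference over the members was 0.34, against 0.19 over all tested genes, and the difference was positive in 80 of 84 members. At an unadjusted p under 0.05 in limma, 29 members were higher and 1 was lower. The share of all tested genes at this threshold is not given, so these counts have no background and are not read as a trait of the members. No member changed by more than 2-fold with an unadjusted p under 0.05.

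The counts depended on how the libraries were scaled. After median-of-ratios scaling, which sets the median of all genes to -0.00046 instead of 0.19, the members' median was 0.13, 65 of 84 were positive, 3 were called higher (*Rps25* among them; background 16.1%) and 1, *Rps19bp1*, was called lower (background 16.6%). All 18 genes called with the deposited FPKM had a positive difference on this scale too. The scaling applies 1 factor to each library and shifted members nearly alike (*Rpl28* from 0.36 to 0.14, *Rplp1* from 0.29 to 0.08). The sign of the 18 genes therefore followed from their larger differences and is no added support. A correction for median transcript length gave a members' median of 0.20 with 12 called higher and 2 lower. Over all genes, 3619 higher and 1408 lower calls with the deposited FPKM became 2156 higher and 2215 lower after median-of-ratios scaling. With the length correction they became 2633 higher and 2213 lower, with a median over all genes of 0.03.

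WT N replicate 3 stood apart from the other WT N libraries in nearly every member. It was the highest of the WT N libraries in 83 of 84 members, against 39.5% of all tested genes, and it lay above the KO N mean in 39. WT N replicates 1 and 2 were the lowest pair of the 6 libraries in 75 members. The 3 KO N libraries were above WT N replicates 1 and 2 in 76 members (46.2% of all genes), but above all 3 WT N libraries in 25, a smaller share than the 37.5% of all genes. Without WT N replicate 3, 68 members were higher and none was lower, with a median of 0.51 (background 31.6% higher and 12.8% lower, median over all genes 0.17). With replicate 3 of both groups left out, 71 were higher (background 33.8%) and 1 was lower.

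**Figure D2:**
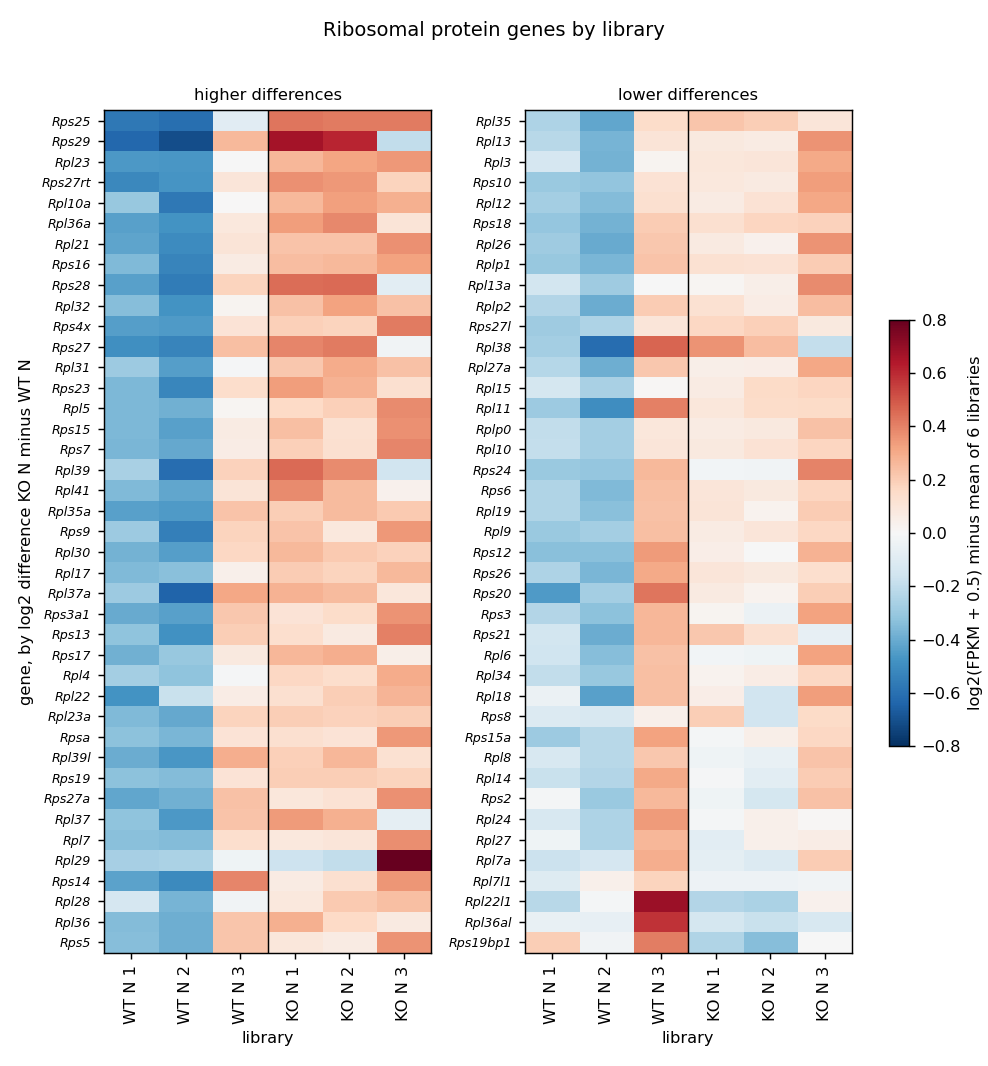
Log2(FPKM + 0.5) minus the gene's mean over the 6 libraries (colour, red high and blue low) for 82 of the 84 ribosomal protein genes (rows, ordered by the log2 difference KO N minus WT N, in 2 panels) in 6 libraries (columns). WT N replicates 1 and 2 are the lowest pair in 75 of the 84 members, WT N replicate 3 is the highest WT N library in 83 of them, and the last rows are *Rpl7l1*, *Rpl22l1*, *Rpl36al* and *Rps19bp1*, the 4 genes with a negative difference.

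Of the 18 calls, 4 passed the test in all 6 fits that left out 1 library, *Rps25* and *Rpl23* among them. The share of all tested genes that passed in all 6 fits is not given, so the count of 4 has no background. *Rps25* (ENSMUSG00000009927, chromosome 9 from 44407139 to 44410427 in GENCODE M21, GRCm38), a protein of the small subunit head that some viral internal ribosome entry sites require, had 48.3, 47.4 and 67.9 FPKM in WT N and 97.1, 96.5 and 96.5 FPKM in KO N. All KO N values were above all WT N values and lay within 1 FPKM of each other, with a log2 difference of 0.84 ± 0.14 (SE; adjusted p = 0.0045). *Rpl23*, a large subunit protein that also binds the p53 inhibitor Mdm2, had 92.1, 91.9 and 126 FPKM in WT N and 153, 158 and 162 FPKM in KO N (0.62 ± 0.14, adjusted p = 0.0122). In *Rps25* and *Rpl23* the groups were apart, and the highest WT N library was replicate 3.

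The other 14 calls were *Rps27rt*, *Rpl10a*, *Rpl36a*, *Rpl21*, *Rps16*, *Rpl32*, *Rps4x*, *Rpl31*, *Rpl5*, *Rps15*, *Rps7*, *Rpl17*, *Rpl4* and *Rpl28*, with log2 differences from 0.36 (*Rpl28*) to 0.60 (*Rps27rt*). Groups did not overlap in any of the 18 called genes, which is no added support because the calls were made on the same values. Over all members 25 of 84 had KO N above all WT N libraries, against 37.5% of all genes. Of these 14, however, 12 passed in only 1 of the 6 leave-one-out fits, the fit without WT N replicate 3. *Rpl10a* passed in 2 and *Rpl31* in 3. *Rpl10a* had 70.9, 58.6 and 87.5 FPKM in WT N and 105, 110 and 107 FPKM in KO N (0.58 ± 0.15, adjusted p = 0.0198). *Rpl36a* had 26.9, 26.1 and 38.8 FPKM in WT N and 46.3, 48.0 and 39.4 FPKM in KO N (0.55 ± 0.17, adjusted p = 0.04). Its lowest KO N library and its highest WT N library, both replicate 3, were nearly equal. *Rpl21* had 53.2, 50.2 and 77.0 FPKM in WT N and 83.7, 83.9 and 92.3 FPKM in KO N (0.55 ± 0.17, adjusted p = 0.0389).

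**Figure D3:**
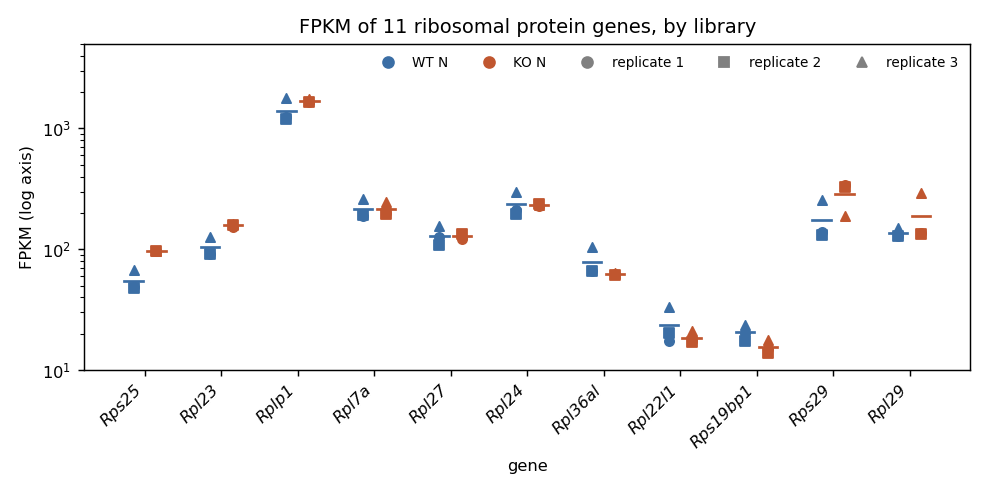
FPKM on a log axis for 11 ribosomal protein genes in each library (WT N blue, KO N orange; circle, square and triangle for replicates 1, 2 and 3; short lines mark group means). *Rps25* and *Rpl23* show separated groups, *Rpl7a*, *Rpl27* and *Rpl24* overlapping ones, *Rpl36al*, *Rpl22l1* and *Rps19bp1* lower KO N means, and *Rps29* and *Rpl29* a KO N replicate 3 far from the other KO N libraries, at 187 and 290 FPKM.

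The stalk genes did not pass the test, although they include the most abundant member. *Rplp1*, an acidic stalk protein and the highest member, had 1237, 1186 and 1785 FPKM in WT N and 1658, 1656 and 1758 FPKM in KO N (log2 difference 0.29 ± 0.17, adjusted p = 0.206). WT N replicate 3 was the highest of all 6 libraries. *Rplp0*, which anchors the stalk to the subunit, had 549, 521 and 670 FPKM in WT N and 660, 665 and 743 FPKM in KO N (0.26, adjusted p = 0.138), and *Rplp2*, the partner of *Rplp1*, had 121, 108 and 164 FPKM in WT N and 155, 148 and 169 FPKM in KO N (0.29, adjusted p = 0.201). Without WT N replicate 3 all 3 stalk genes passed, with adjusted p-values of 0.0126 for *Rplp0*, 0.00245 for *Rplp1* and 0.0082 for *Rplp2*.

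Among the other abundant members, *Rps3a1*, a small subunit protein, had 386, 378 and 594 FPKM in WT N and 552, 567 and 657 FPKM in KO N (adjusted p = 0.127). *Rps15*, a protein of the small subunit head, was called higher, with 320, 305 and 430 FPKM in WT N and 485, 447 and 529 FPKM in KO N (0.48, adjusted p = 0.042). *Rpl8*, a large subunit protein close to the peptidyl transferase centre, had 377, 353 and 478 FPKM in WT N and 403, 396 and 483 FPKM in KO N (0.09, adjusted p = 0.652), and its difference was negative, at -0.12, after median-of-ratios scaling. Levels within the family ranged widely, with 11 members under 50 FPKM, 47 from 50 to 200 and 26 at 200 or more.

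Members with a role outside the ribosome, or a regulated role in it, were called in part. *Rpl5* and *Rpl11* join 5S rRNA in the particle that binds Mdm2 when assembly is disturbed. *Rpl5* was called higher, with 71.6, 70.2 and 92.8 FPKM in WT N and 103, 105 and 119 FPKM in KO N (0.49 ± 0.13, adjusted p = 0.0256). *Rpl11* had 70.03, 60.6 and 114 FPKM in WT N and 91.2, 95.0 and 95.3 FPKM in KO N (0.26 ± 0.22, adjusted p = 0.401). For *Rpl11* WT N replicate 3 was above every KO N library, and without it the adjusted p was 0.0039.

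*Rps6*, the S6 kinase substrate downstream of mTORC1, had 209, 193 and 292 FPKM in WT N and 263, 260 and 278 FPKM in KO N (0.23, adjusted p = 0.292). *Rpl13a*, which in myeloid cells can leave the ribosome to silence inflammatory mRNAs, had 247, 225 and 273 FPKM in WT N and 277, 283 and 356 FPKM in KO N (0.29, adjusted p = 0.118). *Rps19*, mutated in Diamond-Blackfan anaemia, had a mean of 56.4 ± 10.6 FPKM (SD, n = 3) in WT N and 72.8 ± 0.624 FPKM in KO N (0.38, adjusted p = 0.062). In *Rps19* and *Rpl13a* the groups did not overlap, but neither passed the test.

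*Rps3*, which lines the mRNA entry channel and also acts in DNA repair, had 113, 106 and 160 FPKM in WT N and 135, 129 and 167 FPKM in KO N (0.20, adjusted p = 0.421; -0.016 after median-of-ratios scaling). *Rpsa*, also known as the laminin receptor, had 197, 192 and 266 FPKM in WT N and 270, 266 and 315 FPKM in KO N (0.39, adjusted p = 0.0798). *Rps27a*, made as a fusion with ubiquitin, had 113, 116 and 178 FPKM in WT N and 161, 163 and 194 FPKM in KO N (0.38, adjusted p = 0.159). Ribosomal proteins outside the name rule did not pass the test either: *Fau*, which encodes Rps30, differed by 0.45 (adjusted p = 0.0575) and *Rack1*, a signalling scaffold on the small subunit, by 0.21 (adjusted p = 0.175; -0.0014 after median-of-ratios scaling).

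The 4 members with a negative difference were 3 genes named as paralogs and *Rps19bp1*, which meets the name rule but encodes a nucleolar protein that binds Rps19, not a subunit. *Rps19bp1* had 20.4, 17.4 and 23.7 FPKM in WT N and 14.9, 13.9 and 17.6 FPKM in KO N (-0.39 ± 0.14, adjusted p = 0.0713). *Rpl36al* had 66.5, 66.3 and 104 FPKM in WT N and 62.7, 61.1 and 63.3 FPKM in KO N (-0.30, adjusted p = 0.223), and all KO N values were below all WT N values, as in no other member. *Rpl22l1* had 17.5, 20.3 and 33.2 FPKM in WT N and 17.4, 17.1 and 21.0 FPKM in KO N (-0.30, adjusted p = 0.348). *Rpl7l1* had 25.1, 27.8 and 30.6 FPKM in WT N and 26.2, 26.3 and 26.4 FPKM in KO N (-0.07, adjusted p = 0.569). None of these passed the test.

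The core partners of these paralogs had positive differences. *Rpl22*, whose protein is known to repress *Rpl22l1*, had 27.9, 34.5 and 40.6 FPKM in WT N and 42.7, 44.9 and 47.2 FPKM in KO N (0.40, adjusted p = 0.0638), and *Rpl7* differed by 0.37 (adjusted p = 0.109). The coding sequences of *Rpl36a* and *Rpl36al* were 87.7% identical over 318 aligned bases, those of *Rpl22* and *Rpl22l1* 75.5% identical over 359, and those of *Rpl7* and *Rpl7l1* 71.8% identical over 687. How reads from the identical stretches were assigned is not given in the sources used here. *Rpl39* and *Rpl39l* were 85.0% identical over 153 bases and differed by 0.45 (adjusted p = 0.18) and 0.38 (adjusted p = 0.181).

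*Rps27* and the intronless copy *Rps27rt* were identical over all 252 coding bases, so their values are uncertain: reads from this stretch cannot be told apart. *Rps27* had 82.9, 80.8 and 138 FPKM in WT N and 153, 156 and 115 FPKM in KO N (0.52, adjusted p = 0.122), and *Rps27rt* had 18.3, 18.9 and 28.2 FPKM in WT N and 34.1, 33.7 and 29.9 FPKM in KO N (0.60, adjusted p = 0.034). *Rps27l*, a paralog induced by p53, was 81.1% identical to *Rps27* over 249 bases and differed by 0.29 (adjusted p = 0.0992). *Rps4x*, encoded on the X chromosome, was called higher (257, 255 and 377 FPKM in WT N and 398, 396 and 465 FPKM in KO N, adjusted p = 0.0496), while its copy *Rps4l*, annotated as a transcribed processed pseudogene and thus no member, had 14.0, 13.6 and 16.9 FPKM in WT N and 16.04, 14.5 and 18.04 FPKM in KO N (adjusted p = 0.463). The 300 rows of copies named "-ps" held 18.9% to 19.7% of the members' sum in each library, 2317 to 3255 FPKM in WT N and 3200 to 3537 FPKM in KO N, and moved between the libraries with the members.

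Relative to the rest of the family few members stood out. When each library was centred on the median log2 level of the ribosomal protein genes, 3 members lay higher in KO N, among them *Rps25* (0.53, adjusted p = 0.0084) and *Rpl23* (0.31, adjusted p = 0.0478), against a background of 7.89%. Lower than the family were *Rps19bp1* (-0.69, adjusted p = 0.0102), *Rpl36al* (-0.61, adjusted p = 0.0062), *Rpl22l1* (-0.60, adjusted p = 0.0333) and *Rpl24* (-0.29, adjusted p = 0.0464), against 12.3% of all genes. The centring sets the members' typical difference near 0, so a low number of calls among them is partly built in. The shares of all genes are therefore not a like comparison. *Rpl24*, which forms a bridge between the subunits, had 213, 196 and 295 FPKM in WT N and 230, 239 and 234 FPKM in KO N. The other members nearest to 0 with the deposited FPKM were *Rpl7a* (188, 193 and 260 FPKM in WT N and 201, 196 and 244 FPKM in KO N) and *Rpl27* (126, 109 and 155 FPKM in WT N and 122, 133 and 134 FPKM in KO N). In these 3 genes WT N replicate 3 was the highest of all 6 libraries.

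Replicate 3 behaved differently in the 2 groups. WT N replicate 3 minus the mean of WT N replicates 1 and 2, in log2(FPKM + 0.5), had a median of 0.51 over the members, from 0.11 to 0.93, and was above 0 in 84 of 84; over the other 13283 tested genes the median was -0.02. KO N replicate 3 minus the mean of KO N replicates 1 and 2 had a median of 0.10, from -0.83 to 1.09, and was above 0 in 59 of 84, with a median of -0.0045 over the other genes. KO N replicate 3 was the highest KO N library in 57 members (39.3% of all genes) and the lowest in 20 (40.8% of all genes).

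In KO N the sign followed the length of the gene. Among 29 members with a coding length of up to 400 bases, the median of KO N replicate 3 was -0.10 and 19 were below 0; among 30 members of over 400 and up to 600 bases it was 0.14 with 4 below 0, and among 25 longer members it was 0.23 with 2 below 0. In WT N replicate 3 the same bins had medians of 0.59, 0.51 and 0.42. Across the 84 genes, the correlation with log2 coding length was -0.51 (Pearson) and -0.52 (Spearman) for WT N replicate 3 and 0.65 and 0.64 for KO N replicate 3. Over 11295 other genes with a coding length the values were -0.54 and -0.59 for WT N and -0.34 and -0.42 for KO N. Members and other genes cover unlike ranges of length, and whether this accounts for the opposite sign in KO N was not tested. Among other genes the KO N replicate 3 median rose from -0.09 at transcripts of up to 500 bases to 0.09 at over 1000 and up to 1500, as in the members. It was -0.11 in the 3618 other genes of over 3000 bases. Genes of 1 library share its depth and composition, and these correlations are descriptions.

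**Figure D4:**
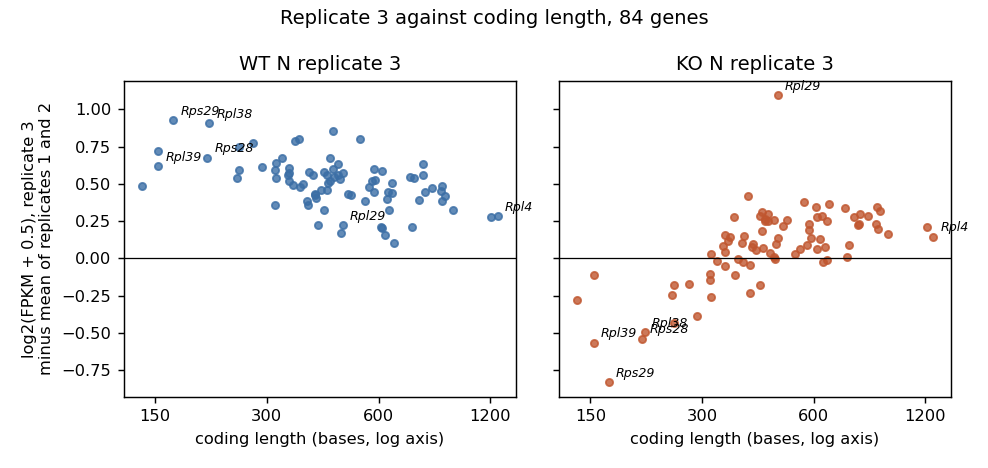
Replicate 3 minus the mean of replicates 1 and 2 in log2(FPKM + 0.5) (vertical axis) against coding length in bases (horizontal log axis) for 84 ribosomal protein genes in WT N (left) and KO N (right). All points are above 0 in WT N; in KO N short genes such as *Rps29* lie down to -0.83, longer genes lie mostly above 0, and *Rpl29* stands alone at 1.09.

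By annotated transcript length the picture was weaker. Members of up to 500 bases (n = 15) had medians of 0.56 in WT N replicate 3 and -0.18 in KO N replicate 3, against 0.19 and -0.09 in 986 other genes of that length. Members of over 1000 and up to 1500 bases (n = 11) had 0.47 and 0.22, against 0.14 and 0.09 in 1870 other genes. At every length up to 1500 bases the WT N replicate 3 value of the members was thus above that of other genes. The group difference followed length less than replicate 3 did: KO N minus WT N correlated with log2 coding length at -0.16 (Pearson) and -0.20 (Spearman) over the members.

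Several short genes had high values in WT N replicate 3 and low values in KO N replicate 3. *Rps29*, a zinc-binding protein of the small subunit head, had 138, 130 and 256 FPKM in WT N and 339, 327 and 187 FPKM in KO N; it was chosen here after its values were seen. In WT N replicate 3 was the highest and in KO N the lowest library, and the log2 difference between groups was 0.72 ± 0.33 (adjusted p = 0.129). *Rps28*, a short small subunit protein, had 34.7, 31.7 and 53.3 FPKM in WT N and 64.2, 64.6 and 44.2 FPKM in KO N (0.54 ± 0.23, adjusted p = 0.112). *Rpl38*, known for its part in translating *Hox* mRNAs, had 143, 113 and 239 FPKM in WT N and 222, 206 and 152 FPKM in KO N (0.28 ± 0.28, adjusted p = 0.479).

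Of the members with the longest annotated transcripts, *Rps20* had 55.1, 62.8 and 102 FPKM in WT N and 79.7, 77.3 and 87.0 FPKM in KO N (0.20, adjusted p = 0.514; -0.015 after median-of-ratios scaling); *Rpl22* and *Rpsa* are given above. *Rpl29*, a small basic large subunit protein also chosen after its values were seen, had 128, 129 and 150 FPKM in WT N and 137, 134 and 290 FPKM in KO N (0.37 ± 0.29, adjusted p = 0.362). KO N replicates 1 and 2 lay within the WT N range and replicate 3 far above it. *Rpl29* passed in none of the 6 leave-one-out fits.

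Other genes of translation, taken from lists by function, set the ribosomal proteins in context. With the deposited FPKM the counts of each list stand against 27.1% higher, 10.5% lower and a median of 0.19 over all tested genes. After median-of-ratios scaling they stand against 16.1% higher, 16.6% lower and a median of -0.00046. After the length correction they stand against 2633 higher and 2213 lower of 13367 genes and a median of 0.03. Of 21 other TOP mRNAs, 7 were higher and none was lower, with a median of 0.28 (4 higher and a median of 0.06 after median-of-ratios scaling). The 7 were *Eif3f*, *Eif3e*, *Eif3h*, *Eif4b*, *Tpt1*, *Eef2* and *Nap1l1*. *Eif3f*, a subunit of the initiation complex eIF3, had 42.5, 42.2 and 53.9 FPKM in WT N and 73.2, 71.4 and 84.4 FPKM in KO N (0.72, adjusted p = 0.0046). *Eef2*, the translocation factor, had 541, 512 and 437 FPKM in WT N and 680, 684 and 644 FPKM in KO N (0.43, adjusted p = 0.0166; 0.22, adjusted p = 0.144 after median-of-ratios scaling). For *Eef2* WT N replicate 3 was the lowest library, while in 83 of the 84 ribosomal protein genes it was the highest of the WT N libraries. Of 10 elongation factor genes 3 were higher and 1, *Eef1e1*, was lower (median 0.23), against 1 higher, 2 lower and a median of 0.03 after median-of-ratios scaling. That list shares *Eef2*, *Tpt1*, *Eef1a1*, *Eef1b2*, *Eef1d* and *Eef1g* with the TOP mRNAs.

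Of 47 initiation factor genes tested, 8 were higher and 4 were lower, with a median of 0.08 (-0.13 after median-of-ratios scaling and -0.09 after the length correction), and *Eif3f*, *Eif3e*, *Eif3h* and *Eif4b* among the higher genes are also on the TOP list. *Eif4e*, the cap-binding protein, was lower, with 15.3, 16.1 and 20.2 FPKM in WT N and 5.45, 12.2 and 4.83 FPKM in KO N (-1.25, adjusted p = 0.0232), and *Eif4ebp2*, an inhibitor of it, was higher, with 14.4, 15.0 and 11.7 FPKM in WT N and 30.4, 31.4 and 29.2 FPKM in KO N (1.13, adjusted p = 0.00042). Of 23 tested regulators in the mTORC1 and Myc list, which holds both of these genes, 7 were higher and 2 were lower (median 0.26), against 5 higher, 6 lower and a median of 0.05 after median-of-ratios scaling. *Deptor*, an inhibitor of mTOR, was higher, with 0.493, 0.746 and 0.478 FPKM in WT N and 3.16, 3.36 and 2.65 FPKM in KO N (1.73, adjusted p = 0.00025). *Ddit4*, another inhibitor of mTORC1, was lower (28.0, 28.3 and 27.3 FPKM in WT N and 15.0, 17.1 and 14.5 FPKM in KO N; -0.83, adjusted p = 0.0006). Regulators that restrain the pathway moved in both directions.

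Ribosome assembly and RNA polymerase I genes had 2 higher and 2 lower of 42 tested, with a median of -0.06. After median-of-ratios scaling 0 were higher and 7 were lower (median -0.26), where 16.6% of all genes were lower. After the length correction 0 were higher and 10 were lower (median -0.23), where 2213 of all 13367 genes were lower. *Ubtf*, a polymerase I factor, was higher (0.42, adjusted p = 0.0071; 0.21, adjusted p = 0.0964 after median-of-ratios scaling) and *Nop56*, a nucleolar protein of snoRNA particles, was lower (-0.47, adjusted p = 0.0166). Mitochondrial ribosomal protein genes had 4 higher and 3 lower of 78, with a median of 0.08 (-0.13 after median-of-ratios scaling and -0.05 after the length correction). The nuclear genes of oxidative phosphorylation, whose mRNAs are as short as those of the members (median transcript length 694 and 704 bases), had 6 higher and none lower of 84, with a median of 0.15 (-0.06 after median-of-ratios scaling and -0.003 after the length correction). These genes also shared the high WT N replicate 3, with a median difference of 0.46 from WT N replicates 1 and 2, and without that library 37 of 84 were higher; 18 of 78 mitochondrial ribosomal protein genes and 15 of 21 other TOP mRNAs were higher without it, against 31.6% of all tested genes.

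**Figure D5:**
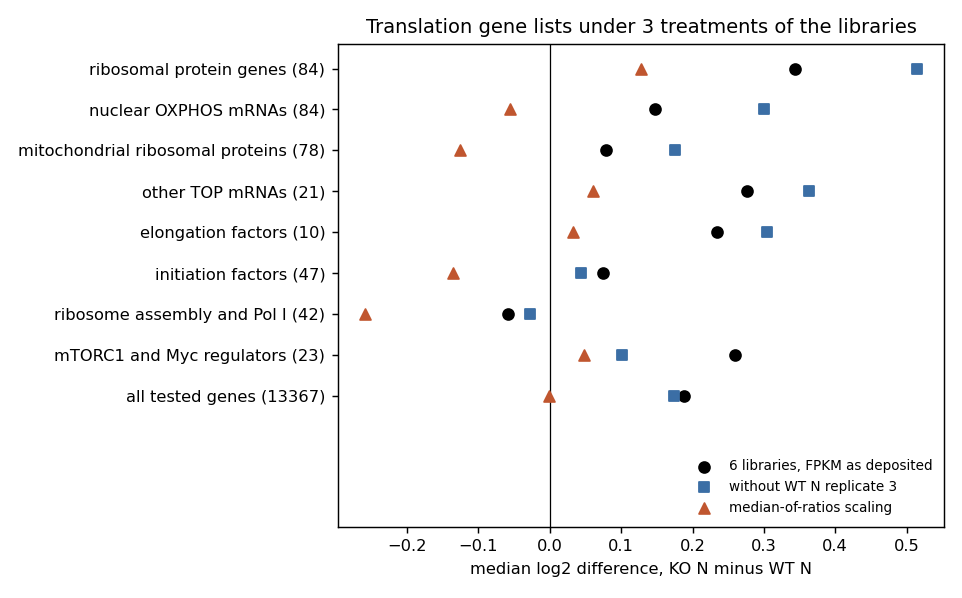
Median log2 difference KO N minus WT N (horizontal axis) over the genes of each list (number tested in brackets), with the 6 libraries and deposited FPKM (black circles), without WT N replicate 3 (blue squares) and after median-of-ratios scaling (orange triangles). The ribosomal protein genes stand at 0.34, 0.51 and 0.13, and all tested genes at 0.19, 0.17 and -0.00046.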

How the data were processed

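RNA of 6 BMDM co-cultures was sequenced. The authors deposited 1 table of FPKM values per Ensembl gene. The submitters' processing notes name fastp 0.17.1, HISAT2 2.1.0, DESeq2 1.18.1 and R 3.4.3; the quantifier, annotation and build are not given in the sources used here. FPKM fixes each gene's share against its library, so a rise in abundant genes lowers others. Low values fell within 0.1 of whole multiples of 1 read in 40.4% to 44.6% of cases (20% by chance), so reads were not recovered and depth is unknown. IDs were named by GENCODE M21 (55154 of 55335 matched, 99.7%). The 13367 genes averaging 0.5 FPKM or more were tested with limma 3.58.1 in R 4.3.3 on log2(FPKM + 0.5) (eBayes with trend, two-sided, Benjamini-Hochberg over all tested genes); fold changes on this scale understate those of low genes. Scripts were tested on simulated data. The members and lists were chosen with earlier results of these data known. Named genes were the 8 largest rises, the 5 highest, 3 shortest and 3 longest members, stalk genes, paralog pairs and genes with roles of their own. Other members are named by their call, sign or place, or are marked. Genes named from the function lists, such as *Eif3f*, *Eif4e* and *Deptor*, were not set by these rules and were named with their values known. Some genes that met these rules are counted but not reported by name here. Alternatives were other scalings, filters, pseudocounts, length corrections, a replicate block and leaving out each library; those without replicate 3 of both groups, median-of-ratios scaling without WT N replicate 3, the family centring and further length corrections were chosen after seeing the data.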

Additional observations from a re-analysis of the deposited data

How the results depend on the processing

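The number of members called higher was 18, and it was 17 or 18 with a pseudocount of 0.1 or 1, with genes of at least 5 FPKM, or with copies named "-ps" added. It was 5 with no filter on low values, 3 after median-of-ratios and 2 after upper-quartile scaling, 39 after rescaling to TPM, 41 after quantile normalization and 3 at an adjusted p under 0.01; none passed a fold change above 2 with an unadjusted p under 0.05. Of all 13367 tested genes, 2156 were higher after median-of-ratios scaling, 2122 after upper-quartile scaling, 3551 with TPM and 2426 after quantile normalization. With no filter on low values 3180 of 28101 genes were higher. The share of all genes at an adjusted p under 0.01 is not given. The members' share called higher was thus below that of all genes with the deposited FPKM, median-of-ratios and upper-quartile scaling. It was above that of all genes with TPM and quantile normalization. Leaving out 1 library at a time gave 4 to 68 higher and 0 to 1 lower. The 68 came without WT N replicate 3, where 4228 of all 13367 genes were higher. The other 5 libraries (WT N replicates 1 and 2, KO N replicates 1, 2 and 3) gave 4, 6, 4, 4 and 5. Over all 13367 genes these 5 fits gave 2730, 2926, 2442, 2442 and 2889 higher, so the members' share was below that of all genes. With replicate 3 of both groups left out 71 were higher and 1 was lower (4518 and 1943 of all 13367 genes). With median-of-ratios scaling and WT N replicate 3 left out 41 were higher and 2 were lower (2594 and 2696 of all genes). The number lower, 0 with the deposited FPKM and limma (1 at an unadjusted p under 0.05), was 1 with median-of-ratios, upper-quartile, TPM or quantile scaling and 2 with each of the length corrections, by median transcript, longest transcript or coding length. The median difference stayed positive, at 0.13 under median-of-ratios and 0.13 under upper-quartile scaling, 0.36 with TPM (0.20 over all genes), 0.40 with quantile normalization (0.03 over all genes), 0.20, 0.22 and 0.24 with length correction by median transcript, longest transcript and coding length (12, 17 and 20 higher), and 0.23 to 0.51 over the leave-one-out fits. With the length corrections in that order 2633, 2831 and 2766 of all 13367 genes were higher. The calls over all genes fell from 5027 to 2739 with genes of at least 5 FPKM, where fewer genes were tested. The replicate numbers did not pair the samples as a whole (correlations of deviations 0.12, 0.036 and 0.26 for numbers 1, 2 and 3). WT N replicates 1 and 2 each correlated best with the other's number, and WT N replicate 3 with KO N replicate 3. With a replicate block 34 members were higher and 1 was lower (4253 and 1681 of all 13367 genes). With the block and length correction 19 and 3 were (2923 and 2552 of all genes). The WT N replicate 3 median of 0.51 was 0.32 after quantile normalization and 0.32 after correction by longest transcript. The sign changed for *Rpl8* (-0.12 under the median-of-ratios and -0.12 under the upper-quartile scale, -0.043 with length correction and with it in the block, -0.031 by longest transcript, -0.040 by coding length, and -0.00079 to 0.22 over the leave-one-out fits), *Rps20* (-0.015 and -0.014 with the 2 scalings), *Rps3* (-0.016 and -0.015), *Rack1* (-0.0014 and -0.00032) and *Rps4l* (-0.084 and -0.083, -0.015 with length correction and with it in the block, -0.0046 by longest transcript, -0.0065 by coding length). The causes were not tested. Over all named genes and alternatives, 668 values kept direction and call, 106 gained the call, 68 lost it and 19 changed sign.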
